A study of Mus musculus with 4 samples.

Results

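Splicing in whole brain of embryonic day 18 (E18) mice lacking PTBP2 was compared with that of wild-type littermates. The 133700 splicing events described here are those that both E18 libraries covered with 20 junction reads or more, of 192169 in the series after 1 exon trio was kept for each middle exon (228333 trios in all). An exon trio is a middle exon with its upstream and downstream neighbors, and where several trios shared a middle exon, the one best covered by junction reads in the 4 libraries together was used. In the knockout (PTBP2 Nestin-KO, called NesKO), Cre recombinase driven by the nestin promoter deletes a floxed part of *Ptbp2* in neural progenitors and their descendants, so that cells outside that lineage, such as microglia and blood cells, keep the gene. Both groups are on a mixed background that the labels spell C56Bl/6:129S2, and polyA+ RNA of 2 brains was pooled into 1 library per genotype. With 1 library each, no difference below has a replicate check, and every test compares the 2 libraries and not the genotypes. The remaining libraries, from postnatal day 1 (P1) cortex and labelled PTBP2 Emx-KO (EmxKO) and WT, are given only as values beside those at E18.

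PTBP2 (nPTB) is an RNA-binding protein of the polypyrimidine tract binding family that binds pyrimidine-rich stretches in introns and most often represses the inclusion of nearby exons. Neural progenitors make mainly its relative PTBP1, new neurons make mainly PTBP2, and PTBP2 in turn declines as neurons mature. A cassette exon is one that is either included in or skipped from the mRNA, and its percent spliced in (PSI) is the percentage of transcripts that include it.

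The targeted exon separated the libraries. Exon 4 of *Ptbp2* (chr3:119455862-119456034, minus strand, mm9, 173 nt, coding) had 0 reads on either inclusion junction and 257 skipping reads in the NesKO. The wild type had 644 and 242 inclusion reads and 1 skipping read. The PSI by junction reads was 0% (95% Wilson interval, 0 to 1.47%) in NesKO brain and 99.8% (98.7 to 100%) in wild type. Junction reads over the whole *Ptbp2* gene were close, 4738 in NesKO brain and 5280 in wild type. At P1 the exon went against 1 label. The library labelled WT had 1250 and 1371 inclusion reads and 604 skipping reads, for a deposited PSI of 67.5%, so that part of its *Ptbp2* transcripts lacked the targeted exon. EmxKO cortex had 152 and 134 inclusion reads and 680 skipping reads (15.9%). Differences at P1 are therefore between the library labelled EmxKO and the library labelled WT, and not against cortex with the exon intact.

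The libraries also differed in ways other than the deletion. Reads on distinct exon junctions numbered 48367448 in NesKO brain and 50188724 in wild type. *Xist*, the RNA of the inactive X chromosome, had 2436 junction reads in NesKO brain and 5 in wild type, while the Y-linked *Eif2s3y* had 888 and 3048 and *Ddx3y* 422 and 1486. The sex-linked RNAs thus differed between the 2 pools, and a difference in sex cannot be told apart from one in genotype. At P1 the order was the other way. *Xist* had 6 reads in EmxKO cortex and 16294 in the library labelled WT, and the Y-linked *Kdm5d* had 2737 and 0. The summed library-scaled reads of 13 neuron markers were 0.836 times the wild-type level in the NesKO (range of single genes 0.468 to 1.11). Those of 10 measured microglia and immune markers were 1.51 times (0.802 to 2.39) and of 8 choroid plexus and meninges markers 1.42 times (0.961 to 1.74) the wild-type level. The erythroid markers were at 1.31 times, and the 5 with at least 30 reads ranged from 1.30 to 1.95 times. Of these, *Hbb-bt* and *Hbb-bs* had identical counts. Each gave 68002 of the list's 137058 reads in NesKO brain and 54141 of 108965 in wild type. *Ttr*, the transthyretin of choroid plexus, gave 83402 of the 120959 reads of its list in the NesKO and was at 1.74 times, while the collagen genes *Col1a1* and *Col1a2* were at 1.01 and 0.961 times. The lists for neural progenitors, astrocytes, oligodendrocyte lineage and endothelial and mural cells were at 1.08, 0.898, 0.712 and 0.922 times. Astrocyte markers moved apart, from 0.484 times for the glutamate transporter gene *Slc1a3* to 2.78 times for *Gfap*, the intermediate filament of astrocytes. In whole tissue, fewer cells of a type and less RNA per cell cannot be told apart, and the part of these differences in the splicing values was not tested.

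An event was called changed where the deposited PSI and the PSI from junction reads both moved 10 points or more the same way and Fisher's exact test of the reads had an adjusted p below 0.05 (two-sided, Benjamini-Hochberg over all 133700 events). By this rule 197 events changed, 2 of them without a gene name and the others in 171 genes. Where a pair of values is given for an event, the NesKO comes before the wild type. Among 6748 cassette exons, 98 (1.45%) were more included in NesKO brain and 25 (0.37%) were less included. The more included ones made up 79.7% of the changed cassette exons. This share is a description without an interval, since all the exons come from the same 2 libraries and some share a gene. Among 120748 exons that the database labels constitutive, 24 (0.0199%) were more included and 25 (0.0207%) less included. The 25 include exon 4 of *Ptbp2*, which the knockout deletes from the gene, so that its call is not a change in splicing. Of 3274 alternative 3′ splice sites, inclusion of the extra segment rose at 4 (0.122%) and fell at 3 (0.0916%). Of 2085 alternative 5′ splice sites it rose at 4 (0.192%) and fell at 2 (0.0959%). Of 845 retained introns, 7 (0.828%) were more retained and 5 (0.592%) less. The 7 include a region of *Rbm5* that contains a called cassette exon. The database lists some exons under both the cassette and the constitutive label, so that 9 of the changed exons appear in both counts, largely from the same reads, and the changes in these classes fell on 163 distinct exons.

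**Figure D1:**
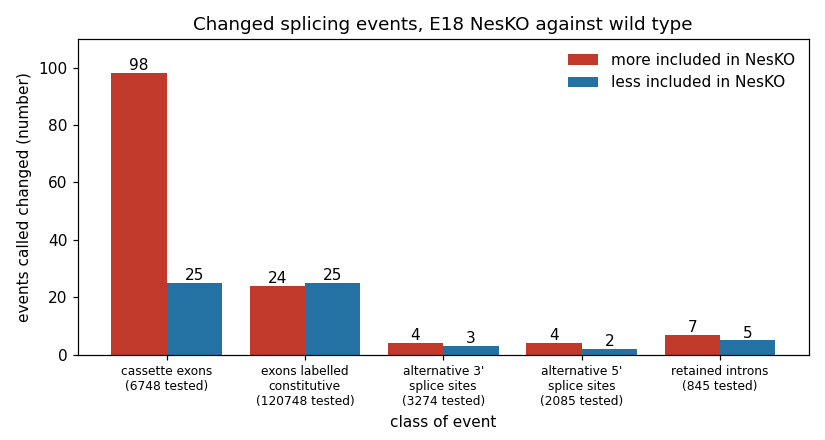
Number of events called changed in the E18 NesKO (vertical axis) in each class of event (horizontal axis), more included in red and less included in blue, with 1 library per genotype. Cassette exons had 98 increases and 25 decreases, while exons labelled constitutive had 24 and 25.

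**Figure D2:**
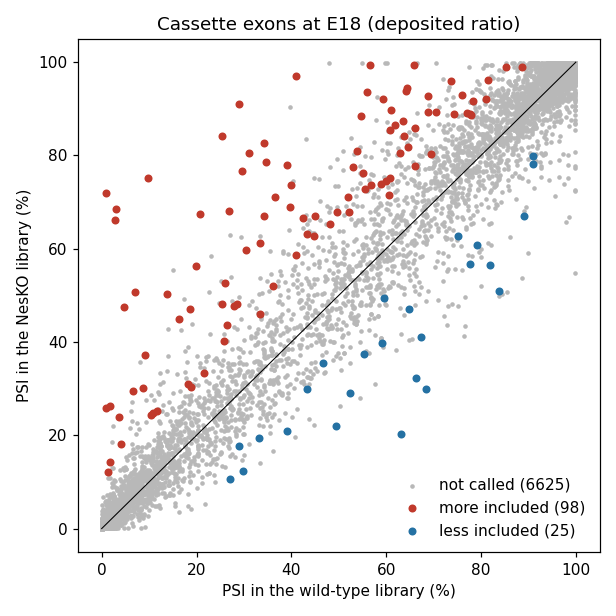
Deposited PSI of each of the 6748 cassette exons in the wild-type library (horizontal axis, percent) and the NesKO library (vertical axis, percent), with the line of equal values. The 98 called increases (red) lie above the line and the 25 called decreases (blue) below it.

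Coding exons from the main groups of changed events are printed below, to show which stretches of mRNA the NesKO gained or lost. The exon is in capitals with 15 bases of each neighboring exon in lower case, 5′ to 3′ in the direction of the gene, read from GENCODE M21 transcripts, while positions are those of the deposited mm9 files.
Gramd1b, 12 nt, chr9:40108025-40108036, minus strand, more included: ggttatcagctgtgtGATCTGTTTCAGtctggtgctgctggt
Golga2, 81 nt, chr2:32148835-32148915, plus strand, more included: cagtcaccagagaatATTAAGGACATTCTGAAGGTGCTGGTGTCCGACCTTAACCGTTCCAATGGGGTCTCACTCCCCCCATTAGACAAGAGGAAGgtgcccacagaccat
Cltb, 54 nt, chr13:54698387-54698440, minus strand, more included: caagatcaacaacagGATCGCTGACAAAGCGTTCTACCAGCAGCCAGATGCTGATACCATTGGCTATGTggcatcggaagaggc
Nckap1, 18 nt, chr2:80411370-80411387, minus strand, less included: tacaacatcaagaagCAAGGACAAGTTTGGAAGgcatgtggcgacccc
Cadm3, 102 nt, chr1:175279153-175279254, minus strand, less included: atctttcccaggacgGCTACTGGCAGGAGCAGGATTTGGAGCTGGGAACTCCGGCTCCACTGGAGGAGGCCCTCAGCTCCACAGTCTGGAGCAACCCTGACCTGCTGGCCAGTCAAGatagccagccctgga

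The largest cassette gains took exons from near absence to the main form. In *Sympk*, which encodes the polyadenylation scaffold symplekin, a 126 nt untranslated exon (chr7:19613246-19613371) had 353 and 833 inclusion reads and 235 skipping reads in the NesKO, against 5 and 6 inclusion reads and 616 skipping reads in the wild type. Its deposited PSI was 72.0% and 0.9% (adjusted p = 2.1e-194, Fisher's exact test). Total junction reads of *Sympk* relative to library total were 1.71 times the wild-type level in the NesKO (counting interval 1.68 to 1.75). In *Actr2*, which encodes the ARP2 subunit of the actin-nucleating ARP2/3 complex, a 15 nt exon had 843 and 52 inclusion reads with 352 skipping reads in the NesKO, and 67 and 5 with 1898 in the wild type. The deposited PSI of this exon was 68.5% and 3.1%. Of all cassette exons, 5 had a PSI under 10% in the wild type and over 50% in the NesKO, and each of them was called.

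Other exons moved over a wide range. *Gpr85*, an orphan receptor of neurons, had 720 inclusion reads over both junctions and 33 skipping reads for an untranslated 124 nt exon in the NesKO, against 200 with 224 in the wild type. Its PSI was 91.0% and 28.9%. *Stam2*, an endosomal sorting adaptor, had 84.1% and 25.3%, and *Ikzf4*, a zinc finger transcription factor, 75.1% and 9.7%, both for exons in transcripts marked for nonsense-mediated decay only. *Thoc5*, a subunit of the THO mRNA export complex, had 82.6% and 34.3% for its 36 nt exon.

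Reads on the junctions of very short exons need care, because the files look as if a read that spans both junctions was counted on 1 of them only. The second junction in genomic order had 0.0654 times the reads of the first for exons of 1 to 10 nt labelled constitutive, 0.607 times for 51 to 75 nt and 1.00 times for 101 to 150 nt, in the wild type. The PSI from junction reads therefore reads low for short exons in both libraries, and the deposited PSI is given first.

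Other large gains were in coding exons of *Scrib*, *Golga2* and *Gramd1b*, and the exons of *Golga2* and *Gramd1b* are printed above. *Scrib*, a cell polarity scaffold, had a PSI of 78.6% for its 84 nt exon in NesKO brain and 34.7% in wild type. *Golga2*, the golgin GM130, had 68.1% and 26.8% for its 81 nt exon. *Gramd1b*, a sterol transporter at contact sites of the endoplasmic reticulum, had 67.5% and 20.8% for its 12 nt exon. The intervals of the junction-read PSI did not overlap for these exons. They come from the reads that called the exons, so this is no separate check.

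Cassette exons that were less included had a median change of -18.1 points (range -43.0 to -10.1), beside a median of 21.7 points (10.4 to 71.1) for those more included. In *Cadm3*, a synaptic cell adhesion molecule, the 102 nt exon had 77 and 41 inclusion reads and 104 skipping reads in the NesKO, against 189 and 106 with 70 in the wild type, for a PSI of 32.2% and 66.4%. *Syt7*, a calcium sensor of vesicle fusion, had a PSI of 29.1% and 52.4% for a 132 nt exon. It had 247 and 29 inclusion reads with 326 skipping reads in the NesKO, and 616 and 28 with 226 in the wild type. Its inclusion reads thus fell on 1 junction and not on the other. *Nckap1*, a subunit of the WAVE complex that activates ARP2/3, had 21.9% and 49.4% for an 18 nt exon. No called cassette decrease ended below a PSI of 10% in the NesKO.

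**Figure D3:**
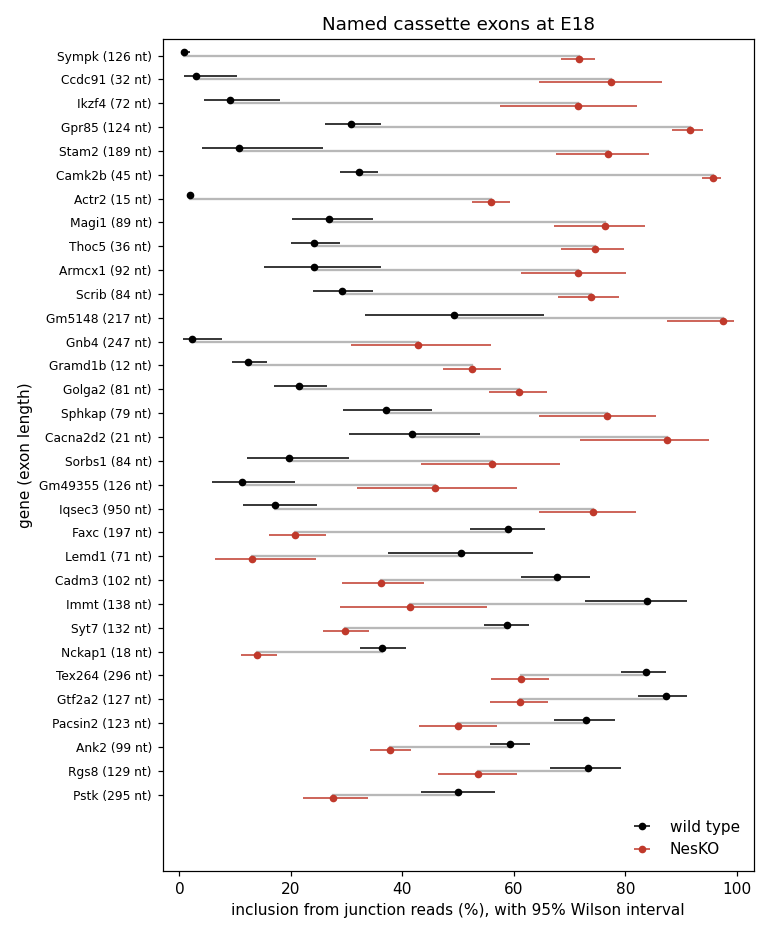
Inclusion from junction reads (horizontal axis, percent) of the named cassette exons in the wild type (black) and NesKO (red), with 95% Wilson intervals that cover counting error only. Genes named Gm are predicted genes with no described role. *Sympk* moved from 0.885 to 71.6% and *Cadm3* from 67.8 to 36.2%.

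Exons labelled constitutive also changed by wide margins. Gains in this class were in *Lrrfip2* (57.1% and 18.7%), *Mta3*, a chromatin remodeling subunit (66.0% and 31.9%), and the X-linked *Nbdy* (85.9% and 52.5%). The *Lrrfip2* and *Mta3* exons are in transcripts marked for nonsense-mediated decay only. *Rbm10*, an X-linked splicing regulator and a relative of *Rbm5*, had 98.3% and 84.5% for a 74 nt exon, and *Rbm5* had 90.3% and 73.9% for an exon of the same length.

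Several exons that most wild-type transcripts included were skipped in a larger part of the NesKO transcripts. *Dchs1*, a large protocadherin of planar cell polarity, had 242 and 236 inclusion reads and 248 skipping reads for its 210 nt exon 13 in the NesKO, against 649 and 585 with 2 in the wild type. Its PSI was 41.6% and 99.7% (adjusted p = 3.3e-101, Fisher's exact test). *Entpd5*, a nucleotidase of the endoplasmic reticulum, had 28 skipping reads for its 80 nt exon in NesKO brain and 0 in wild type, with a PSI of 40.1% and 99.9%. Skipping of the *Entpd5* exon leaves 73 codons of 427. *Abi2*, another WAVE complex subunit, had a PSI of 25.1% and 74.5% for its 147 nt exon. The X-linked *Pdzd4* had 165 skipping reads in NesKO brain and 30 in wild type for its 254 nt exon, with a PSI of 39.7% and 93.3%. *Hecw1*, a ubiquitin ligase of neurons, had 28.6% and 84.2% for its 102 nt exon.

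*Ank2*, the ankyrin that links membrane proteins to the spectrin skeleton, was the gene with cassette exons called in both directions. One 99 nt exon (chr3:126715591-126715689) was at 92.2% in NesKO brain and 59.3% in wild type. A second 99 nt exon (chr3:126666301-126666399) went the other way, at 39.8% and 59.1%, and a 183 nt exon labelled constitutive was at 14.9% and 29.8%. At P1 each of these 3 exons differed by less than 5 points between the EmxKO and the library labelled WT, with 60.5% and 56.3%, 42.1% and 44.0%, and 12.9% and 14.2%.

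By function, the cassette exons in 14 gene lists were counted. Together the lists held 851 tested cassette exons, of which 29 were more included (3.41%) and 4 less included (0.47%), beside 1.45% and 0.37% over all cassette exons. The lists were written with earlier results of these data known, so their counts are a description and were not tested. A higher share in them cannot be read as an enrichment of these functions. Calcium signalling had 4 increases among 31 exons (12.9%), in *Camk2b* (a subunit of the CaM kinase II), *Ppp3ca* (the calcineurin catalytic subunit) and *Atp2b4* (a plasma membrane calcium pump). The *Atp2b4* entries are 2 overlapping versions of 1 exon. Secretory and endosomal trafficking had 4 among 94 (4.26%), including *Tbc1d24*, whose 18 nt exon was at 52.7% and 26.1%.

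At synapses, postsynaptic scaffolds and glutamate receptors had 3 increases among 48 exons (6.25%) and no decrease. *Grin1*, the obligatory NMDA receptor subunit, had a PSI of 33.3% and 21.5% for its 63 nt exon. *Gria2*, an AMPA receptor subunit, had 71.6% and 60.5% for a 115 nt exon in transcripts marked for nonsense-mediated decay only. Its 2 inclusion junctions were unequal. They had 1090 and 212 reads with 273 skipping reads in the NesKO, and 1392 and 354 with 688 in the wild type. The value may thus not be simple inclusion of a cassette exon, which was not tested.

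Presynaptic and endocytic genes had 3 increases (3.23%) and 1 decrease (1.08%) among 93 exons. *Rims2*, an active zone protein, had 88.5% and 54.6% for a 66 nt exon, and *Cltb*, the clathrin light chain B, had 84.1% and 63.7% for the 54 nt exon printed above. The decrease was the *Syt7* exon. Microtubule-associated proteins and motors had 3 increases among 62 exons (4.84%) and no decrease. *Kif1a*, a vesicle motor of axons, had 72.8% and 55.6% for a 24 nt exon, *Kif21a* 66.6% and 42.5%, and *Kif21b* 92.8% and 68.8%. The *Kif21b* exon is in transcripts marked for nonsense-mediated decay only.

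Actin and dendritic spine regulators had 4 increases (3.77%) and 1 decrease (0.943%) among 106 exons. The increases included the 12 nt exon of *Enah* at 48.2% and 28.5%. The PTB family and neuronal splicing factor list had 3 increases among 48 exons (6.25%), in *Puf60* and *Rbm5*, and the SR and hnRNP protein list had 0 among 47. Neural adhesion and guidance had 1 increase, in *Ncam1* (76.2% and 55.2% for an 801 nt exon), and 1 decrease, in *Cadm3*, among 93 (1.08% each). Voltage-gated channels had 1 increase among 40 exons (2.5%), in *Cacna2d2*, whose 21 nt exon had 0 reads on 1 of its inclusion junctions in both libraries. The spectrin, ankyrin and 4.1 list had 1 increase and 1 decrease among 34 exons (2.94% each), both in *Ank2*. Signalling kinases and phosphatases had 1 increase among 67 (1.49%), in *Pitpnb*, and chromatin and transcription factors had none among 81. Over all cassette exons 1.45% were more included and 0.37% less included, so a count of 0 or 1 in lists of this size is not read as a result.

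**Figure D4:**
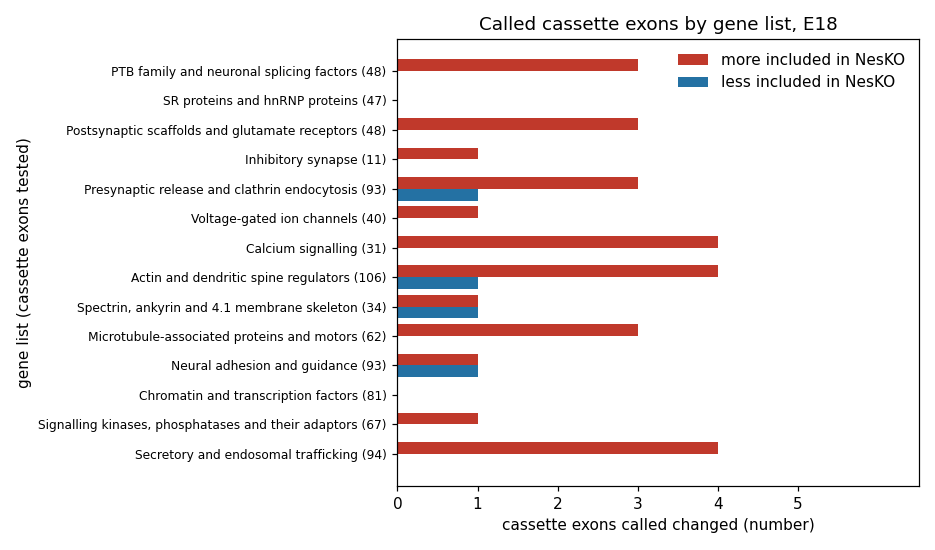
Number of cassette exons called changed (horizontal axis) in each gene list (vertical axis, with the number of cassette exons tested), more included in red and less included in blue. Calcium signalling has 4 increases among 31 exons, and the SR and hnRNP protein list has none among 47. Over all cassette exons tested, 1.45% were more included, and the lists were written with earlier results of these data known.

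The length and reading frame of the called exons are given here as a description. Of the 98 increased exons, 14 (14.3%) were 27 nt or shorter, compared with 335 of 6748 (4.96%) over all tested cassette exons and 1 of the 25 decreased. Lengths divisible by 3, which keep the reading frame, made up 69.4% of the increased, 64.0% of the decreased and 50.7% of all. The median wild-type PSI was 41.0% for increased exons, 63.2% for decreased and 79.3% for all. The rule bears on these medians, because a called exon needed room to move 10 points from its wild-type PSI. Of the 91 increased exons matched to an annotated transcript, 65 were coding (71.4%), 11 untranslated (12.1%) and 11 in transcripts marked for nonsense-mediated decay only (12.1%), near the shares over all annotated cassette exons tested, where 73.9% were coding, 10.5% untranslated and 634 of 6330 in transcripts marked for such decay only.

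*Hcfc1r1* held the alternative 3′ splice site with the largest loss among the named genes. It had 5 and 1 reads on the 12 nt segment at its alternative 3′ splice site and 1294 reads without it in the NesKO, against 343 and 19 with 478 in the wild type, for a PSI of 0.4% and 40.9%. At P1 both libraries included that segment, at 97.4% and 97.7%. An unnamed 15 nt segment (chr9:86676539-86676553) had a PSI of 2.9% in NesKO brain and 67.0% in wild type. Among alternative 5′ splice sites, *Usp5*, a ubiquitin-specific protease, had 82.2% and 62.0%, *Cep170*, a centrosomal protein, 66.3% and 51.9%, and *Bptf*, a chromatin remodeler, 71.0% and 86.8%. In these classes 1 boundary of the segment is continuous with the exon, so its reads are not spliced.

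Among retained introns, 1 in *Fam161b* had a PSI of 45.4% in NesKO brain and 1.7% in wild type, with 21 and 61 spliced reads. *Rbm5*, an RNA-binding splicing regulator, had 77.4% and 41.6% for a 3329 nt region that contains its called 74 nt exon. The spliced reads of this region, 39 and 140, equal the skipping reads of that exon. Transcripts that include the exon are thus not counted as spliced, and the value is not a separate measure of retention. *Clk1*, a kinase of SR proteins, had 17.6% and 6.3% by the deposited ratio, while its reads put both libraries much higher, with 105 and 119 reads at the boundaries and 26 spliced reads in the NesKO.

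The exons called at E18 were also read at P1, where Cre is driven by *Emx1* in cortex and where stage, tissue, library type and genotype construct all differ. The library labelled WT there skipped the targeted *Ptbp2* exon in part, as given above. Of the 98 increased cassette exons, 96 had enough reads at P1, and 53 of these (55.2%) were called increased there by the same rule. Over all 6940 cassette exons tested at P1, 147 (2.12%) were called increased and 32 (0.461%) decreased. All 25 decreased exons were tested at P1, and 10 were called decreased. Over the 96 increased exons tested at P1, the median change was 21.2 points at E18 and 13.3 points at P1. The exons were chosen by their E18 change and not by that at P1, so these medians do not compare the size of the effect. *Sympk* had 71.0% and 0.2% at P1, close to its E18 values, while the first *Ank2* exon described above was not called there. The X-linked *Armcx1*, at 76.6% and 29.5% for a 92 nt exon at E18, went the other way at P1, at 52.3% in EmxKO cortex and 94.7% in the library labelled WT. Its order followed that of the *Xist* reads, which were 6 and 16294 at P1, and the part of sex was not tested.

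**Figure D5:**
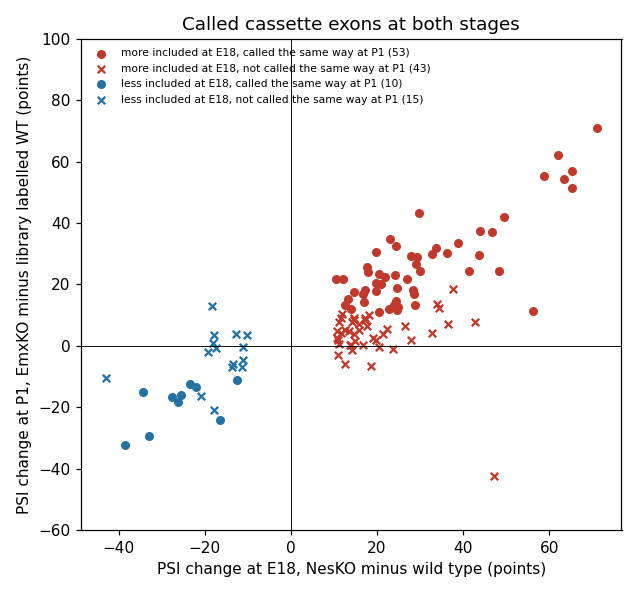
Change in deposited PSI at E18 (horizontal axis, NesKO minus wild type, points) and at P1 (vertical axis, EmxKO minus the library labelled WT, points) for the called cassette exons with enough reads at both stages. Filled points, 53 increases and 10 decreases, were called the same way at P1, and the lone red cross near the bottom is *Armcx1*.

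Levels of whole genes were compared as reads on distinct junctions, as a share of the library total. Of 11869 genes with at least 100 reads in the higher library, 84 (0.708%) were at least 2-fold higher in NesKO brain and 87 (0.733%) at least 2-fold lower. Beside *Xist*, the largest increases were in hormone genes of the pituitary. *Gh*, growth hormone, had 7059 reads in NesKO brain and 4 in wild type, *Pomc* had 1992 and 23, and *Cga*, the common subunit of glycoprotein hormones, had 205 and 1. The pituitary's share in each dissection was not tested. *Gpnmb* and *Itgax*, both made by activated microglia and macrophages, were 5.04 times (counting interval 3.93 to 6.53) and 4.64 times (3.14 to 7.03) higher. *Cdkl2*, a protein kinase, was the gene with the largest decrease, with 118 reads in NesKO brain and 748 in wild type, 6.11 times lower (5.02 to 7.48).

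The stress and cell death list moved in both directions. Of its 12 genes with at least 30 reads, 3 were at least 2-fold higher and 2 at least 2-fold lower, and its summed level was 0.988 times that of the wild type. *Chac1* and *Ddit3* (CHOP) had 205 and 55 reads and 1523 and 503 reads in NesKO brain and wild type. *Hmox1*, heme oxygenase, had 484 and 229. *Fos* and *Atf3* were lower, with 241 and 654 reads and 47 and 107 reads. *Hspa5*, the endoplasmic reticulum chaperone BiP, was at 0.897 times the wild-type level.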

How the data were processed

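RNAseq of polyA+ RNA gave 4 libraries, 1 per group, with paired reads of 100 nt. The authors aligned reads to exon trios with SpliceTrap, and their processing notes name CASAVA, TopHat, Cufflinks and mm9. The deposited inclusion ratio is a fraction from 0 to 1, multiplied by 100 here to give the PSI, and the deposited junction reads are counts without normalization. The deposited class calls were used only in an alternative and the coverage values were not used.

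Junction PSI was the mean of both inclusion junctions over its sum with skipping, and the libraries were compared on its rounded mean by Fisher's exact test (two-sided, p-values adjusted by Benjamini-Hochberg, SciPy 1.17.1, NumPy 2.4.6, pandas 2.3.3, Python 3.11.15, figures with matplotlib 3.10.9). Wilson intervals (95%) and counting intervals of folds cover counting error only, since PCR copies are not independent molecules. Events needed 20 junction reads in both libraries. Genes were named by matching exon and intron lengths to GENCODE M21 (208210 of 228333 trios by the exon and both introns, 15598 by a shared splice site, 4525 unnamed). No coordinates were converted, and intron motifs were not searched because no mm9 genome was used here. The calculation was tested on simulated data.

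Named events were *Ptbp2*, then the 20 largest increases and 12 largest decreases among called cassette exons, 5 in each direction of the other classes, up to 4 per function list, and 8 genes per direction by fold. Some are left out, and *Ank2* exons, *Hcfc1r1*, *Armcx1* and the unnamed 3′ splice site were described in more detail after their values were seen. Members and lists were chosen with earlier results of these data known. Older symbols in the lists were updated through RefSeq synonyms. Some events and sequences are not reported here.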

Additional observations from a re-analysis of the deposited data

Results flagged for a closer look

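*Armcx1*, an X-linked gene for a mitochondrial protein, was the gene whose called events changed in opposite directions at E18 and P1, and the difference between the stages was not tested. Its 92 nt untranslated exon had a PSI of 76.6% in NesKO brain and 29.5% in wild type at E18, and 52.3% in EmxKO cortex and 94.7% in the library labelled WT at P1, a change of -42.4 points. In the trio listed as constitutive the same exon changed by -44.1 points at P1, and a 116 nt segment at an alternative 5′ splice site by -38.3 points. Junction reads over the gene were 1095 and 433 in NesKO brain and wild type at E18, and 383 and 1724 in EmxKO cortex and the library labelled WT at P1. That P1 library skipped the targeted *Ptbp2* exon in part (PSI 67.5%), against its label. *Xist* had 2436 and 5 junction reads at E18 and 6 and 16294 at P1, so the library with more *Xist* had the higher inclusion at each stage. The part of sex in these values was not tested.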

How the results depend on the processing

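No paired analysis was possible because each genotype has 1 library, and for the same reason no library could be left out. The 123 changed cassette exons became 61 at a minimum change of 20 points and 81 with the smaller inclusion junction. At 20 points the other counts were 28 constitutive-labelled exons (49 by the stated rule), 4 alternative 3′ splice sites (7), 2 alternative 5′ splice sites (6) and 4 retained introns (12). With adjustment within each class, 180 cassette exons (139 more and 41 less included) and 11 alternative 3′ splice sites were called. With inclusion reads corrected for exon length, an alternative chosen after seeing the data, they numbered 14, and 130 cassette exons were called, among them all 123. Genes at least 2-fold different numbered 324 (171) when 30 reads sufficed in the higher library, and the split of 84 higher and 87 lower became 96 and 67 when scaled to the median ratio over genes of 0.962. The share of increases among changed cassette exons stayed between 77.2 and 83.6% under the alternatives run. Of 126 recomputed changes of named events, 0 reversed and 17 moved by more than the counting error of the NesKO PSI, all with the PSI from junction reads alone. Among them the *Iqsec3* change went from 34.4 to 57.1 points and that of *Immt* from -26.2 to -42.5 points.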
